A study of Mus musculus with 36 samples.

Results

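The clustered protocadherin genes were the 57 genes of 40205 features in the count tables whose symbols name a member of the Pcdha, Pcdhb or Pcdhg series on mouse chromosome 18. They comprised 14 genes of the alpha cluster, 22 of the beta cluster and 21 of the gamma cluster. The rule used symbols and no measured value, but it was chosen with earlier results of these data known. Of the alpha genes, 12 carry numbered variable exons, and of the gamma genes 12 belong to the a family and 6 to the b family. The remaining 5 are the c-type genes Pcdhac1, Pcdhac2, Pcdhgc3, Pcdhgc4 and Pcdhgc5. RNA was sequenced from neurosphere cultures of neural stem cells (NSCs) and from the extracellular vesicles (EVs) that these cultures released into the medium. All cultures were wild type C57BL/6J (the methods name the Ai14 reporter line) and came from the dorsal telencephalon of fetuses at gestational day 12.5, with tissue of a pregnancy pooled by sex and cells used at passages 7 to 10. A female and a male culture of each of 3 pregnancies (sets 3, 4 and 5) were kept in control medium or in 120 or 320 mg/dL ethanol until day 5. Each culture and dose gave 1 EV and 1 cell library, so that 18 EV libraries faced 18 cell libraries, and a library is a pooled culture of passaged cells rather than an animal.

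Clustered protocadherins are homophilic adhesion molecules of the cell surface, known chiefly from neurons, where the combination each cell displays lets its branches tell self from non-self. In the alpha and gamma clusters each variable exon has a promoter of its own and is spliced to constant exons that all genes of the cluster share, while beta genes have single coding exons and no constant exons. Promoter choice depends on the DNA-binding protein CTCF and on cohesin, and the c-type genes are used more evenly across neurons than the other members.

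Almost none of these genes had counts. A count here is a read or read pair that the authors' counting assigned to a gene. Of the 57 members, 56 had 0 counts in all 36 libraries, and Pcdha1, the outermost gene of the alpha cluster, was the exception with 38 counts in all. All 22 beta genes and all 21 gamma genes were listed at 0 in NSCs and in EVs, and so were 13 of 14 alpha genes. The 5 c-type genes of the alpha and gamma clusters were all at 0. In NSCs 14 of 1026 values of a member in a library were above 0, and in EVs 3 of 1026 were. Across all features 31069 had at least 1 count and 9136 had none. Library totals were 26.6 to 55.3 M counts in NSCs (M for mega) and 0.959 to 5.51 M in EVs, and summed over libraries 674 M and 58.8 M. A member with 0 of 674 M counts in NSCs could have had up to 0.00445 CPM (counts per 1 M counts of the library), and one with 0 of 58.8 M in EVs up to 0.0511 CPM, where 3 counts are taken as the limit that 0 allows. These limits cover counting error only and refer to reads assigned to a gene, not to reads that overlap it.

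Of 12 NSC markers, 11 had counts in every cell library, with a sum of 3333 to 6254 CPM, and 1 was at 0 in all 36 libraries. The marker at 0 was Sox2, a transcription factor that defines NSCs. Of 10 neuron markers, 8 had counts in every cell library, with a sum of 576 to 1274 CPM. All 7 oligodendrocyte lineage markers had counts in every cell library, with a sum of 342 to 867 CPM, and the 4 astrocyte markers summed to 28.9 to 364 CPM with Aqp4 at 0. The 6 microglia markers summed to 0.565 to 1.30 CPM with P2ry12 at 0, the 5 endothelial markers to 1.58 to 6.14 CPM and the 5 mesenchymal markers to 0.756 to 3.96 CPM. Since each library is bulk RNA, fewer cells that use a gene and less RNA per cell cannot be told apart.

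Past Pcdha1 at its edge, the zeros ran across the locus without a break, and among protein-coding genes they ended at its borders. In the GENCODE annotation of GRCm39 the members lie on the plus strand of chromosome 18 from 37063237 to 37975014, a stretch of 912 kb. The alpha cluster takes 37063237 to 37320716, the beta cluster 37397991 to 37657532 and the gamma cluster 37794846 to 37975014. By the RefSeq map 63 features of the tables lie within the locus, the 57 members and 6 others, and Pcdha1 alone of the 63 had counts. Among the others are Gm37013, Gm38666 and Gm38667, long gene models that run across several clusters, and Taf7, which lies between the beta and gamma clusters. Taf7 encodes a subunit of the general transcription factor TFIID, and it was listed at 0 in all 36 libraries. Outside the stretch, all 21 protein-coding genes within 400 kb had counts, with a median of 8822 counts over the 36 libraries. Their totals ran from 132 to 72572, and 14 of the 21 had counts in all 36 libraries. Of the noncoding features there, 3 miRNA genes and 2 lncRNA genes were at 0. On the near side Zmat2 had 29626 counts, and on the far side Diaph1, an actin-nucleating formin whose gene lies just beyond the gamma cluster, had 34989. Hdac3, a histone deacetylase, had 29354, and Pcdh1, a protocadherin outside the clusters, had 8654.

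**Figure D1:**
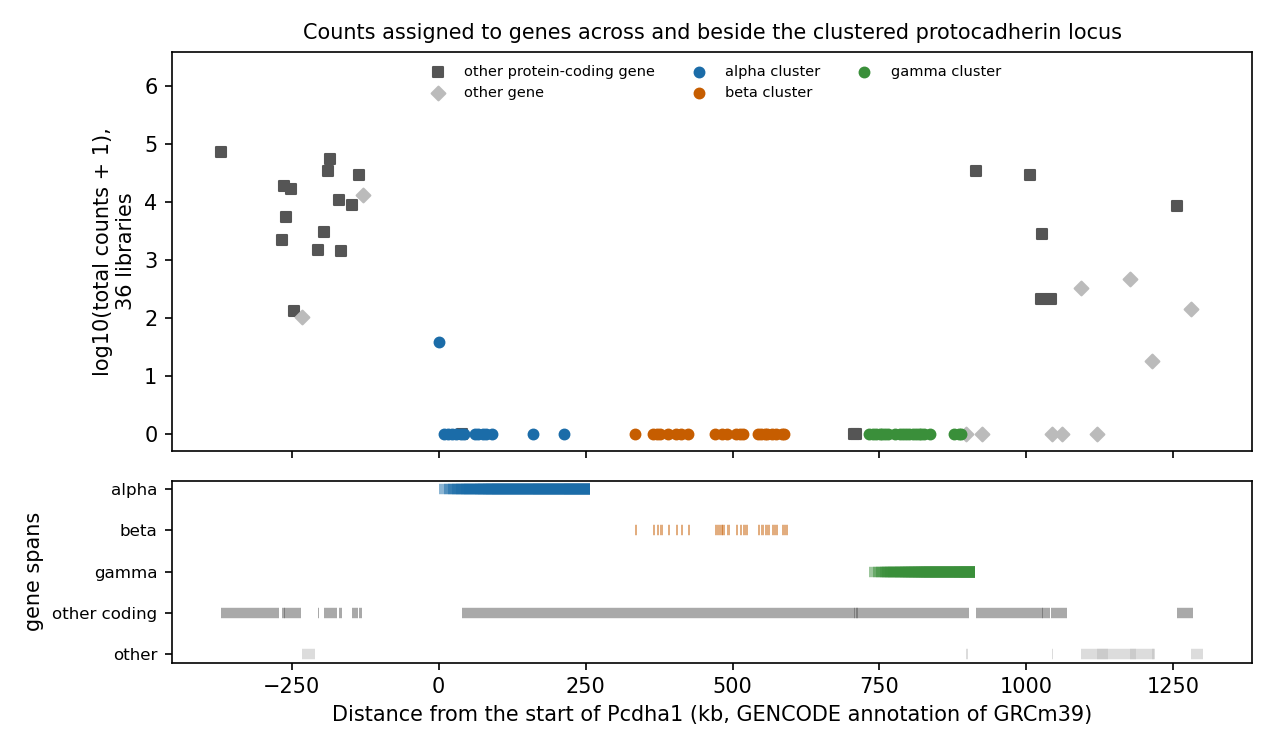
Total counts of each gene over the 36 libraries, as log10(counts + 1), against the distance of its start from the start of Pcdha1 in kb (upper panel), with the gene spans (lower panel). Alpha, beta and gamma genes sit at 0 except Pcdha1 with 38 counts, while the protein-coding genes on both sides had 132 to 72572 counts.

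The members also share a feature of the gene map that their choice did not use. The span of 56 of the 57 members, from first to last annotated base, is wholly covered by the spans of other genes, in GENCODE and also in the RefSeq table (assembly GRCm38.p6, matched for all 57 members by symbol). The exception in both was Pcdha1. In GENCODE its span runs from 37063237 to 37320714, and the first 9021 bases, up to 37072257, lie in no other gene. These bases hold 2489 exon bases of Pcdha1 and make up 3.50% of its span. In RefSeq each alpha gene overlaps 16 other genes, of which 13 are members, and each gamma gene overlaps 24 other genes. Each beta gene overlaps 3 genes, none of them a member, and these are the long models Gm37013, Gm38666 and Gm38667. How HTSeq was told to treat a read that falls in more than 1 gene, and on which strand, is not given in the sources used here.

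The same feature was set against zeros among protein-coding genes outside the clusters. By RefSeq spans, 804 of 838 wholly covered genes had 0 counts in all 36 libraries, which is 95.9% (Wilson 95% interval 94.4 to 97.1). Of the 20817 genes not wholly covered, 954 had 0 counts, or 4.58% (4.31 to 4.88). The share did not climb step by step with cover: it was 6.51% among genes with no cover, 0.342% with over 0 to 25% covered, 0.498% with 25 to 50%, 2.01% with 50 to 75% and 8.18% with 75 to 100%. GENCODE spans gave 443 of 942 wholly covered genes at 0, or 47.0% (43.9 to 50.2), against 3.29% of the rest. Of the 423 genes wholly covered in both annotations 417 were at 0, or 98.6% (96.9 to 99.3). Among these the share was 69 of 70 where the covering genes were all on the same strand and 303 of 306 where all were on the opposite strand. It was 204 of 204 where no exon base was shared and 213 of 219 where some were. These are shares of genes, which are not independent replicates, and the intervals cover counting error only. The part of read assignment in the zeros of the protocadherin clusters was not tested, since reads that overlap several genes are not analysed here.

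**Figure D2:**
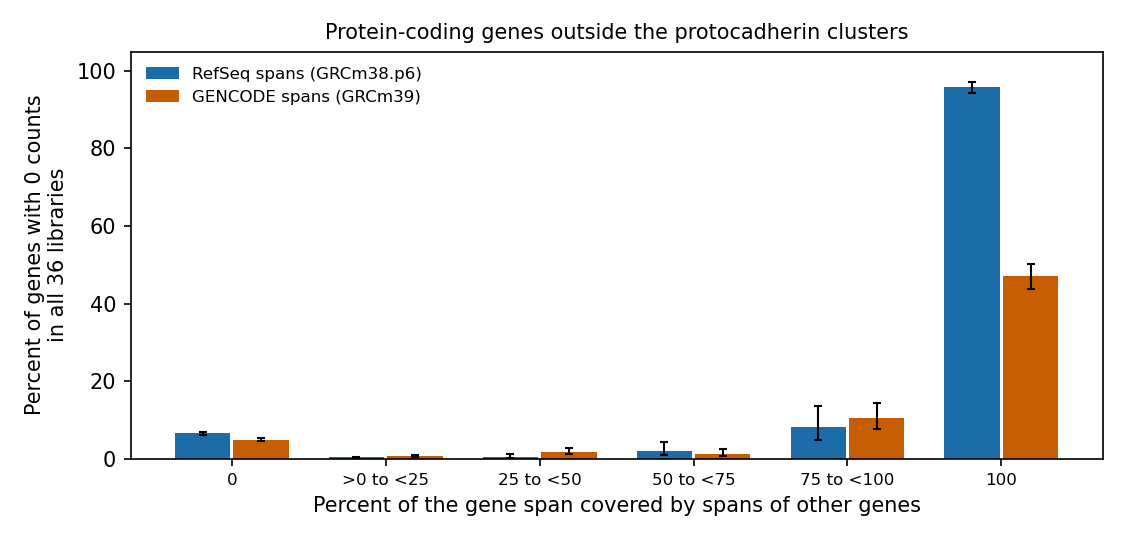
Percent of protein-coding genes outside the clusters with 0 counts in all 36 libraries (vertical axis) by the percent of the gene span that spans of other genes cover (horizontal axis), by RefSeq and by GENCODE spans, with Wilson 95% intervals as error bars. By RefSeq 95.9% of wholly covered genes were at 0, and 8.18% or fewer in each other class.

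Olfactory receptor genes, which have single coding exons like the beta protocadherins and are used chiefly in the nose, numbered 1109 in the tables. Of them 633 had counts in NSCs and 561 in EVs, with pooled means of 0.00935 and 0.0329 CPM per gene. The pooled medians were 0.00148 and 0.0170 CPM, or 1 count each, and the highest genes had 894 and 356 counts. The beta cluster had 0 of 22 and the gamma cluster 0 of 21. All beta and gamma genes were wholly covered by other genes, while 22 of the 1109 olfactory genes were wholly covered and at 0. The part of this cover in the difference was not tested.

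Pcdha1 is 1 of the variable alpha genes, whose proteins carry extracellular cadherin repeats and the shared alpha cytoplasmic tail. In NSCs it had 35 counts, in 14 of 18 libraries, with 0 at the lowest, 1 at the median and 7 at the highest. The female culture of set 3 had 1 count in control medium, 2 at 120 mg/dL and 0 at 320 mg/dL. That of set 4 had 0, 3 and 1, and that of set 5 had 3, 6 and 7. Among the male cultures, set 3 had 1, 1 and 0 counts, set 4 had 1, 4 and 1, and set 5 had 2, 2 and 0, in the same order of doses. The female culture of set 5 thus held 16 of the 35 counts and the 2 highest libraries. In EVs Pcdha1 had 3 counts, 1 each in the female culture of set 5 at 120 mg/dL, the male culture of set 4 in control medium and the male culture of set 5 at 320 mg/dL, and 0 in the other 15 libraries. Of the 31069 features with counts, 75.1% had more than Pcdha1.

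**Figure D3:**
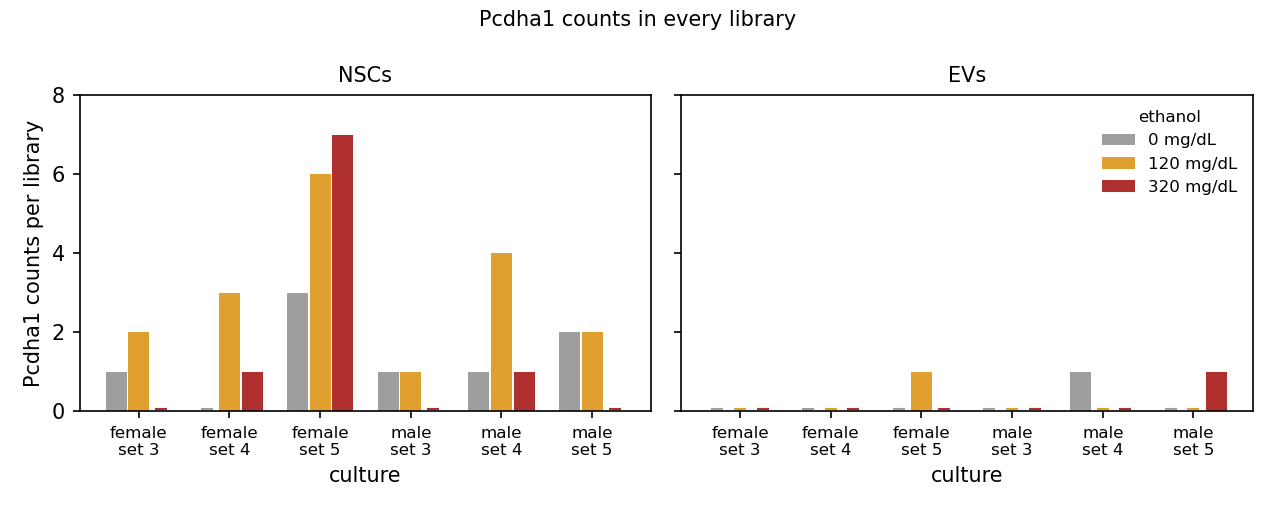
Counts of Pcdha1 in each of the 36 libraries (vertical axis) by culture (horizontal axis) and ethanol dose (colours), in NSCs on the left and EVs on the right. Short dashes at the base mark libraries with 0 counts, and the female culture of set 5 reached 6 and 7 counts in NSCs.

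The first comparison asked whether RNA of these genes differed in share between EVs and the NSCs that released them. Pooled over libraries, Pcdha1 came to 0.0520 CPM in NSCs (exact binomial 95% interval 0.0362 to 0.0723) and to 0.0511 CPM in EVs (0.0105 to 0.149). The ratio of EVs to NSCs was 0.983, with an exact conditional interval from 0.193 to 3.12, so that neither a 3-fold lower nor a 3-fold higher share in EVs was detectable at this depth. Per library the mean was 0.0536 ± 0.0618 CPM (SD, n = 18) in NSCs and 0.0386 ± 0.0895 CPM (SD, n = 18) in EVs, and the groups overlapped. The difference of EVs minus NSCs was smaller than either SD. An unpaired two-sided permutation test over libraries gave p = 0.565 (0.781 after Benjamini-Hochberg adjustment over 4 tests). That test used neither the pairs of EV and cell libraries nor the cultures that libraries share. Under TMM scaling, as used in edgeR, the order of the means was the opposite, with 0.0411 ± 0.0490 CPM in NSCs and 0.0546 ± 0.129 CPM in EVs (SD, n = 18). The beta and gamma sums were 0 in every library, so no fold is given for them, and the alpha sum equals Pcdha1. Without the female culture of set 5, the pooled level of Pcdha1 in NSCs was 0.0335 CPM.

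In edgeR's quasi-likelihood test of EVs against cells, 80.5% of 15281 genes passed an adjusted p of 0.05, but 0 of 57 members reached the minimum count for the test, so 0 were called and 0 had an unadjusted p under 0.05. With no filter on low counts Pcdha1 was the 1 member that could be tested. In edgeR its log2 fold change was 0.18 (adjusted p = 0.846), where 70.9% of 31069 features were called. In DESeq2 it was 1.85 (adjusted p = 0.0152) and was called, where 74.9% of features were called and the features tested had a median of 1.73. With each EV library blocked with the cells it came from, edgeR gave Pcdha1 -0.04 (adjusted p = 0.967) and called 66.9% of features. The 3 EV counts carry these fits, and the DESeq2 value stands beside a pooled ratio of 0.983.

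The second comparison was that of ethanol with control. In NSCs Pcdha1 had 8 counts in control medium, or 0.0334 CPM pooled (exact binomial 95% interval 0.0144 to 0.0659). At 120 mg/dL it had 18 counts, or 0.0738 CPM (0.0438 to 0.117), and at 320 mg/dL 9 counts, or 0.0472 CPM (0.0216 to 0.0896). The ratio at 120 mg/dL to control was 2.21 (0.914 to 5.87), and the CPM was higher in 4 of 6 cultures (exact paired permutation test, two-sided, p = 0.125, adjusted 0.5 over 4 tests). At 320 mg/dL the ratio was 1.41 (0.484 to 4.21), with 3 cultures higher and 3 lower (exact paired permutation test, p = 0.781). Both intervals include 1. Without set 5 the ratios were 3.14 (0.808 to 17.7) at 120 mg/dL and 0.865 (0.0723 to 7.55) at 320 mg/dL, so the direction at 320 mg/dL rests on set 5, and without its female culture alone that ratio was 0.523 (0.0498 to 3.19). In EVs each dose and the control had 1 count, and no difference was detectable.

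No member was called at either dose. With edgeR, 0 of 57 members reached the test in NSCs or in EVs, where 0% of 17792 genes were called at 120 mg/dL and 0.0393% at 320 mg/dL in NSCs, and 0.00842% and 0.0842% of 11880 in EVs. Without the filter, Pcdha1 in NSCs had log2 fold changes of 1.37 at 120 mg/dL (unadjusted p = 0.0397, adjusted p = 1 in edgeR) and 0.34 at 320 mg/dL (adjusted p = 0.971). At this setting edgeR called 0% of 30506 features at both doses. In DESeq2 it had 1.38 at 120 mg/dL (unadjusted p = 0.112) and 0.07 at 320 mg/dL (unadjusted p = 0.94), where 0.0131% and 0.315% of features were called. In EVs Pcdha1 had -0.01 at 120 mg/dL and 0.25 at 320 mg/dL (both adjusted p = 1 in edgeR without the filter), where 0.53% and 0.699% of 29604 features were called. DESeq2 called 0.0405% and 0.902% of them, and gave Pcdha1 no adjusted p. For the ratio of EVs to NSCs, edgeR's interaction of location and dose gave -1.26 at 120 mg/dL (adjusted p = 1) and 0.15 at 320 mg/dL (adjusted p = 1), and 0 members were called. With the filter no member was tested, and 0.00654% of 15281 genes were called at each dose. Without it, 0.0193% and 0.0225% of 31069 features were called at the lower and the higher dose, and in DESeq2 0.0193% and 0.715%. The 120 and 320 mg/dL comparisons share their control libraries.

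Females were set against males, and the 6 cultures against each other. In NSCs female cultures had 23 counts of Pcdha1 (0.0712 CPM pooled, exact binomial 95% interval 0.0452 to 0.107) and male cultures 12 (0.0342 CPM, 0.0177 to 0.0597). The ratio was 2.08 (0.994 to 4.59). Culture means in sets 3, 4 and 5 were 0.0318, 0.0295 and 0.159 CPM in females and 0.0152, 0.0557 and 0.0306 CPM in males. Over these means females were higher by 0.0396 CPM (exact unpaired permutation test, two-sided, p = 0.6, where 0.1 is the smallest that 3 against 3 can give). The pairs of cultures from a pregnancy were not used in it. Without set 5 the ratio was 0.944 (0.291 to 2.98), and without set 4 it was 3.74 (1.44 to 11.4), so its size and direction rest on single pregnancies. No member reached edgeR's test by sex, so 0 could be called, with 5.83% of 17052 genes called in NSCs and 11.1% of 11037 in EVs. Without the filter Pcdha1 had a log2 fold change of 1.11 in NSCs (adjusted p = 0.366 in edgeR) and -0.39 in EVs (adjusted p = 0.841 in edgeR), higher in females where positive, and 3.07% and 6.1% of features were called. With the pregnancy as a block as well, these were 0.98 (adjusted p = 0.314 in edgeR, 9.73% called) and -0.27 (adjusted p = 0.911 in edgeR, 14.2% called). DESeq2, with 6.56% of features called in NSCs and 9.03% in EVs, gave Pcdha1 an adjusted p of 0.337 in NSCs and none in EVs. P-values of the sex and culture tests measure the spread between these libraries, since the 3 libraries of a culture are not independent.

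Among the cultures, pooled Pcdha1 in NSCs was highest in the female culture of set 5, with 0.150 CPM (exact binomial 95% interval 0.0857 to 0.243). The male culture of set 4 followed with 0.0557 CPM (0.0204 to 0.121), then the female culture of set 4 with 0.0342 (0.00932 to 0.0876), the male of set 5 with 0.0340 (0.00927 to 0.0871), the female of set 3 with 0.0302 (0.00623 to 0.0884) and the male of set 3 with 0.0159 (0.00193 to 0.0576). The intervals of neighbours in this order overlapped, while those of the highest and the lowest culture did not. They cover counting error only and not the spread between libraries of a culture, and these 2 cultures were picked after ranking. In the test of differences among the 6 cultures in NSCs, 68% of 18725 genes were called by edgeR with its filter and 0 members reached the test. Without the filter Pcdha1 was called (adjusted p = 0.0407 in edgeR), where 41.4% of 30506 features were called, and in DESeq2 it was not (adjusted p = 0.0805), where 42.8% were. In EVs 50.3% of 13193 genes were called, and Pcdha1 was not (adjusted p = 0.959 in edgeR without the filter, where 28.5% of 29604 features were called). DESeq2 gave it no adjusted p there and called 23.3%.

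Genes around the clusters in function were measured at depths that allowed tests. Positive log2 fold changes are higher in EVs, and all values are relative to a median log2 fold change of all genes of -0.08, which was -0.88 when libraries were scaled by their totals. With that scaling 3424 of 15281 genes were higher and 9292 lower. Of 12 solitary protocadherins, which lie outside the clusters and also mediate adhesion, 9 passed the filter. In edgeR 5 of them were lower in EVs and 0 higher, where 42.2% of all genes tested were lower and 38.4% higher, and the median of the 9 was -0.40. The p-values of this fit, here and for the lists below, treat libraries that share a culture as independent. With each EV library blocked with its cells, 5 were called with a median of -0.40, where 12214 of 15281 genes were called. Pcdh19, a partner of N-cadherin in adhesion, ran from 11.9 CPM over a median of 31.0 to 65.7 CPM in NSCs and from 2.18 over 8.41 to 13.2 CPM in EVs, with a log2 fold change of -1.44 (adjusted p = 3.5e-07 in edgeR). Its ranges overlapped only between 11.9 and 13.2 CPM. Pcdh11x had medians of 102 CPM in NSCs and 27.6 CPM in EVs (log2 fold change -1.15, adjusted p = 0.0002 in edgeR), and Pcdh9 310 and 110 CPM (-0.87, adjusted p = 0.000184 in edgeR). The 4 that did not pass were Pcdh1, Pcdh15, Pcdh17 and Pcdh18, with log2 fold changes from -0.24 to 0.31. Without set 5, 3 of the 9 were called, 2 lower and 1 higher. Over all genes at that setting 11325 of 14810 were called, 5939 lower and 5386 higher. With every library thinned to the smallest total, 0 of 8 were called, where 38.3% of 7235 genes were.

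**Figure D4:**
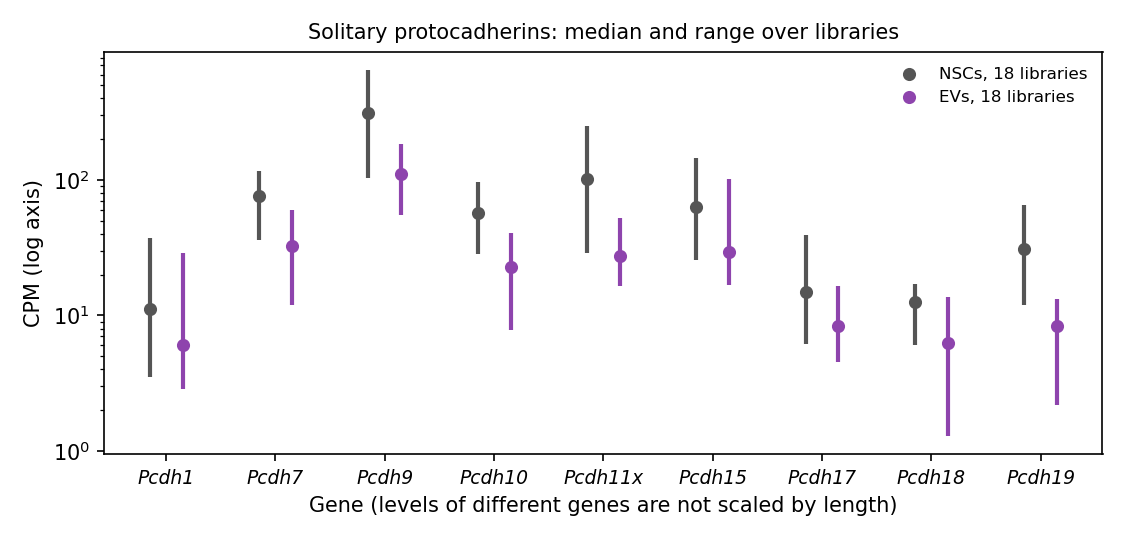
CPM of the 9 solitary protocadherins with counts in every library (log axis), scaled by library totals, with the median as a point and the lowest to highest library as a line, for 18 cell and 18 EV libraries. Each EV median lies below the NSC median of its gene, while after TMM scaling 5 of the 9 genes were called lower in EVs.

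With the classical cadherins and the Fat, Dchs and Celsr families added, 17 of 24 genes tested were called, 7 higher and 10 lower in EVs, with a median of -0.12, which was 0.0075 without set 5. Over all genes tested 38.4% were higher and 42.2% lower. Cdh2 (N-cadherin, the main adhesion molecule of NSCs) ranged from 103 to 335 CPM in NSCs and from 10.3 to 36.8 CPM in EVs, without overlap (log2 fold change -2.09). Cdh11 had -1.89. In the other direction Cdh1 (E-cadherin) had 2.98 at medians of 0.342 and 1.68 CPM, Cdh8 2.74, and Fat4, a giant cadherin of planar polarity, 2.51 at medians of 43.9 and 190 CPM.

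Of 22 regulators of clustered protocadherin promoters and chromatin, 18 were called, 5 higher and 13 lower in EVs, with a median of -0.66. Over all genes tested 80.5% were called, so the count is near that share. The largest decrease was that of Smchd1 (-1.89), a chromatin protein that silences the clusters, which ranged from 85.5 to 188 CPM in NSCs and from 10.3 to 29.4 CPM in EVs. Wapl (-1.60) unloads cohesin and Nipbl (-1.51) loads it, and both were lower in EVs. Ctcf had a log2 fold change of -0.59 (adjusted p = 0.00102 in edgeR) at medians of 50.3 and 19.0 CPM. Dnmt3a, a de novo DNA methyltransferase, was the largest increase (4.63), from 48.0 to 119 CPM in NSCs and from 525 to 2270 CPM in EVs. Tet3 (2.94) and Tet1 (1.67), enzymes that oxidise methylated cytosine, were also higher in EVs.

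Of 22 binding and signalling partners, 18 were called, 6 higher and 12 lower, with a median of -0.49, and this count too is near the 80.5% called over all genes. Pdcd10, an adaptor reported to bind protocadherin tails, fell most, from a range of 30.6 to 56.8 CPM in NSCs to 1.44 to 5.88 CPM in EVs (-3.18). Cyfip1 (-1.81), a subunit of the WAVE complex, and Adam10 (-1.72), the protease that sheds cadherin ectodomains, were lower too. The receptor Ret (2.81), Abi2 (2.28) and Wasf2 (2.19), the latter both WAVE complex subunits, were higher in EVs. In the thinned libraries 8 regulators, 7 partners and 4 of the cadherins were called, where 38.3% of 7235 genes were.

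Of these 71 genes, 69 were tested for ethanol in NSCs and 66 in EVs. In edgeR 0 were called at 120 mg/dL in NSCs (0 with an unadjusted p under 0.05) and 0 at 320 mg/dL in NSCs (4 unadjusted). In EVs 0 were called at 120 mg/dL (4 unadjusted) and 0 at 320 mg/dL (8 unadjusted). Over all genes in NSCs, 0 and 7 of 17792 were called at 120 and 320 mg/dL (444 and 1525 unadjusted). In EVs 1 and 10 of 11880 were (744 and 1410 unadjusted). Of the listed genes DESeq2 called 1 in these 4 tests, at 320 mg/dL in EVs, where 0.902% of 29604 features were called. Without its filter edgeR called 1, at 120 mg/dL in EVs, where 0.53% were. By sex 6 of 69 genes were called in NSCs, where 5.83% of all genes were, and 13 of 65 in EVs, where 11.1% were. When the 3 doses of each culture were added into 1 library 0 were called, where 7 of 20972 genes were in NSCs and 0 of 14847 in EVs, with 1398 and 2229 at an unadjusted p under 0.05 in edgeR. With the pregnancy as a block, 3 regulators, 8 partners and 7 cadherins were called in NSCs, against 1, 2 and 3 without it, and 6, 6 and 12 in EVs, against 2, 3 and 8. The block also raised the calls over all genes, from 994 to 2953 of 17052 in NSCs and from 1224 to 2993 of 11037 in EVs. Without set 5 the 4 solitary protocadherins called by sex in EVs (Pcdh11x, Pcdh15 and Pcdh19 higher and Pcdh18 lower in females) became 0, where 2 of 9841 genes were called, and without set 4 they became 1, where 407 of 11008 were. Among the 6 cultures, 9 of 10 solitary protocadherins were called in NSCs, where 68% of all genes were, and 7 of 9 in EVs, where 50.3% were.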

How the data were processed

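The deposited values are whole counts per gene and library, which the authors made from a stranded library kit by trimming and deduplicating reads, aligning them to mm39 with STAR and counting with HTSeq. The annotation, feature type, strand setting and overlap mode are not given in the sources used here. Counts were used as deposited, and a library is named by its location, sex, pregnancy set and dose. Members were every gene whose symbol matched the series rule, all of them are accounted for, and the named genes were Pcdha1, the 5 c-type genes and, per list, up to 3 genes each way with the greatest fold change among those past the threshold; other genes were named after their values were seen. The members and lists were chosen with earlier results of these data known.

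Tests were edgeR 4.0.16 quasi-likelihood F tests in R 4.3.3 (TMM scaling, filterByExpr with a minimum count of 10 and a minimum total of 15, Benjamini-Hochberg adjusted p under 0.05 over all genes tested), with terms for sex and dose between EVs and cells, for culture within ethanol comparisons, for dose otherwise, and an interaction of location and dose with location by culture terms for the ratio. Low totals in EVs (median 3.83 M, against 37.8 M in NSCs) limit precision there. Alternatives were DESeq2 1.42.0, other scalings, no filter, thinning, summed doses, control libraries alone, a block added or removed, and leaving out each pregnancy. The edgeR tests with the filter were tested on simulated data for some of the comparisons, and not at counts as low as those of Pcdha1. Single values of Pcdha1 were tested by permutation, paired by culture for ethanol and unpaired otherwise. These tests were exact for 6 or fewer cultures, and otherwise used 100000 resamples.

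Pairs came from the labels, since an EV and a cell library share a culture and the doses of a culture share its cells. Deviations from the condition mean correlated with medians of 0.715 and 0.621 in NSCs and 0.191 and 0.210 in EVs between 120 or 320 mg/dL and control, 0.0719 between EV and cell libraries, and 0.376 in NSCs and 0.106 in EVs between the sexes of a pregnancy. Positions are from GENCODE on GRCm39, where 79.4% of symbols were found, and RefSeq spans (GRCm38.p6 table, 96.3% matched) served only for overlaps between genes. Figures were drawn with Python 3.11.15 and matplotlib 3.10.9. No sequences of these genes are printed.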

Additional observations from a re-analysis of the deposited data

How the results depend on the processing

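No member reached the filter on low counts in any of the 11 comparisons, nor in 68 of 99 alternatives, so the 0 members called there say nothing about stability. The other 31 alternatives had no filter and fitted Pcdha1, and 29 of them did not call it. Among those 29, several DESeq2 fits gave Pcdha1 no adjusted p and so could not call it. These were 320 mg/dL in NSCs, both doses in EVs, the EV-to-cell ratio at both doses, and sex and cultures in EVs. It was called for EVs against cells in DESeq2 and for the 6 cultures in NSCs by edgeR, so that 1 member was called each time. With the replicate block added or removed and no filter, 0 members were called. With the filter, and without set 3, 4 or 5, 0 members were tested. Pooled Pcdha1 in NSCs was 0.0334 to 0.0668 CPM without 1 pregnancy and 0.0335 CPM without the female culture of set 5, against 0.0520. The ratio of Pcdha1 in EVs to NSCs was 0.849 to 1.05 without 1 pregnancy. The cluster sums moved by less than their SD between scalings. The share of wholly covered protein-coding genes at 0 was 95.9% by RefSeq spans, 47.0% by GENCODE spans, 98.6% for cover in both, and 97.1% with up to 3 counts taken as 0. These settings, the values of Pcdha1 with libraries left out, and blocks changed together with the filter were chosen after seeing the data, and the cause of the gap between annotations was not tested. Of 44 counts of called list genes between EVs and cells, 36 were within 1.5 times the count given and 8 were not. Those were 8 regulators, 7 partners, 4 cadherins and 0 solitary protocadherins in thinned libraries, and for the solitary protocadherins 8 with library totals, 10 without the filter with or without the block, and 3 without set 5. Over all genes the thinned libraries called 38.3% of 7235, against 80.5% of 15281 with the full counts. Medians of 2 lists changed sign: the cadherins ran from -0.38 to 0.0075 without 1 pregnancy (positive without set 5) and had 0.19 in thinned libraries, and the solitary protocadherins had 0.028 in thinned libraries. At 58.8 M counts in EVs, a member below 0.0511 CPM could have gone without a count.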

Other observations

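The pattern of Pcdha1 had a counterpart in another series of genes with variable first exons and shared later exons. The Ugt1a genes, which encode glucuronosyltransferases, numbered 9 in the tables, and 8 of them were wholly covered by other genes in RefSeq and had 0 counts in all 36 libraries. Ugt1a10, the outermost, was covered to 90.7% and had 33 counts in 24 libraries. This series was chosen after its values were seen.

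Zeros in genes wholly covered by RefSeq spans included genes in wide use, named after their values were seen. B2m (the light chain of MHC class I), Cdk2 (a cell cycle kinase), Tuba1b (an alpha tubulin), G6pdx (the entry enzyme of the pentose phosphate pathway) and Prnp (the prion protein) were wholly covered and at 0 in all 36 libraries, as were Sox2 and the long noncoding RNA Xist. By class and RefSeq spans, 957 of 957 wholly covered miRNA genes, 417 of 417 snRNA genes, 793 of 795 snoRNA genes and 2943 of 3000 lncRNA genes were at 0. Of those not wholly covered 138 of 271, 167 of 576, 266 of 535 and 238 of 9097 were, in the same order. By GENCODE spans 898 of 936, 357 of 398, 616 of 636 and 1346 of 1744 of the wholly covered were at 0. Of the rest 150 of 240, 166 of 522, 246 of 424 and 389 of 6431 were. Among 22 Ugt genes 9 were wholly covered and at 0, and these include the 8 Ugt1a genes above. The number was 5 among 7 Angptl genes and 13 among 75 Gpr genes. Other families had lower shares, with 22 of 1109 olfactory receptor genes, 9 of 397 Zfp genes and 9 of 236 Tmem genes. These families were named after their values were seen. Of the 838 wholly covered protein-coding genes 34 had counts, with 50300 at the highest.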
